A study of Mus musculus with 12 samples.

Results

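Iris RNA of the beige strain B6-Lystbg-J (B6-Lyst below) was compared with iris RNA of the congenic strain B6.D2(Tryp1-Gpnmb-)/SJ, called B6-D2 congenic below. Each strain had 3 arrays. The 6 arrays were taken by strain label from a series of 12, and 45037 probe sets other than Affymetrix controls were considered. B6-Lyst carries the bg-J mutation of Lyst. B6-D2 congenic carries a mutation in Tyrp1 (the b allele, spelled Tryp1 in the labels) and the R150X allele of Gpnmb. The labels name no allele that both strains carry, and B6 in both names stands for the C57BL/6 background. Mice were 60 days old and described as healthy, and each array held RNA of the 4 eyes of 2 animals, pooled. The labels give neither sex nor litter. The remaining arrays, 3 of C57BL/6J and 3 of the Tyr mutant B6-(Cg)TyrC-2J (B6-albino) at the same age, entered the model that estimated the spread and are quoted as reference levels. Neither mutant is the control of the other, so a difference can lie on either side. Whole irides were used, so more cells of a type and more RNA per cell cannot be told apart.

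Lyst encodes a large BEACH domain protein that limits the size of lysosomes and of related organelles such as melanosomes, and its loss gives giant granules in pigment cells, leukocytes and mast cells. Tyrp1 encodes a melanosomal enzyme of eumelanin synthesis. Gpnmb encodes a transmembrane glycoprotein of melanosomes that macrophages loaded with debris or lipid also make, and DBA/2J mice that carry both of these mutations lose pigment from the iris. Macrophages of the iris and its surroundings can take up such pigment. Uptake of pigment was not measured here.

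Most genes called different between the strains were higher in B6-Lyst, and they were led by genes of macrophages and other myeloid cells. The largest rises were in Mmp12 (macrophage elastase), Clec4d (a C-type lectin receptor of myeloid cells), Atp6v0d2 (a subunit of the vacuolar proton pump) and Il7r (the interleukin-7 receptor chain). The few genes lower in B6-Lyst were led by Cck, which encodes the peptide cholecystokinin. With limma, 252 of 27022 tested probe sets (0.933%) were called at a Benjamini-Hochberg adjusted p under 0.05. Of these, 241 (0.892%) were higher and 11 (0.0407%) lower in B6-Lyst, and for all 252 the values of the 3 B6-Lyst arrays lay wholly above or wholly below those of the 3 B6-D2 congenic arrays. At least 2-fold differences made up 173 of the calls (0.64%), 170 of them higher in B6-Lyst. Probe sets were tested where their mean over the 12 arrays was at least 5.653 on the log2 scale, and each gene was represented by its brightest tested probe set. Of the tested genes, 96 reached that mean through the B6-Lyst arrays alone, and 34 of the called rises are among them. Such genes had to differ, so the counts for the lists below are a description of the genes tested. Where such members changed a printed count of calls, this is stated beside it. Counted by gene, 172 of 13190 genes (1.3%) were called, 163 of them higher (1.24%) and 9 lower (0.0682%).

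The direction of the calls differed from that of the bulk of the genes. Among all tested probe sets, 59.4% had a lower mean in B6-Lyst, and the median difference over tested genes was -0.08 on the log2 scale. Without adjustment, 2622 probe sets had p under 0.05, of which 1083 were higher and 1539 lower. Arrays that did not overlap were also more often in the lower direction, with 2777 probe sets lower (10.3%) and 1882 higher (6.96%).

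**Figure D1:**
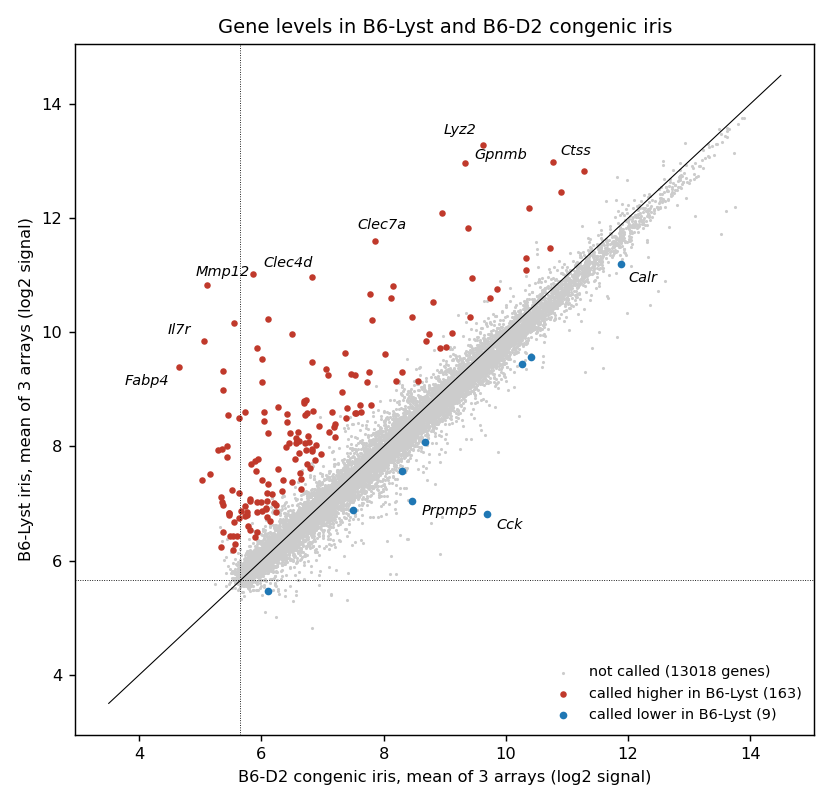
Mean log2 signal of each tested gene over the 3 B6-D2 congenic arrays (horizontal axis) and the 3 B6-Lyst arrays (vertical axis), with the line of equality and, dotted, the filter value of 5.653. The 163 genes called higher in B6-Lyst (red) spread far above the line, many from below the filter value in B6-D2 congenic iris, and 7 of the 9 called lower (blue) lie close below it, with Cck and Prpmp5 farther away.

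Pigment and smooth muscle markers were high on all 6 arrays, with list means between 10.02 and 10.42 for melanin synthesis and between 9.55 and 9.80 for smooth muscle. RNA of neighbouring tissue varied between arrays. The mean of 21 lens genes was 11.11, 7.25 and 10.01 on the B6-Lyst arrays and 10.35, 10.86 and 11.09 on the B6-D2 congenic arrays, and Krt12, a corneal keratin, read 13.81 on B6-D2 congenic replicate 2 against 5.96 to 6.84 on the other 5. Hybridization spike-in controls were lower in B6-Lyst, at 9.72 ± 0.05 (SD, n = 3) against 10.11 ± 0.05 (n = 3), with an exact two-sided permutation p of 0.1, the smallest that 20 splits allow. With that spike-in mean as a covariate, 44 of the 163 gene rises and 0 of the 9 gene falls were called, while all 163 rises kept their direction with a median size of 1.40, against 1.37 without it. All 12 of the largest rises were called in that fit, with adjusted p between 2.38e-05 and 0.0045. The called members of a list in that fit are given below as the count with the spike-in covariate, and the part of the spike-in difference in these results was not tested. The C57BL/6J arrays stood apart in other controls. Their poly-A spike-in means were 7.36 to 8.16, against 4.94 to 5.95 on the other arrays. On C57BL/6J replicate 3 the 3' minus 5' control differences were 4.30 for actin and 4.01 for Gapdh. Every other array lay at 1.84 to 2.72 and 1.85 to 3.24. Their part in the reference levels was not tested. In the record order, B6-Lyst follows C57BL/6J in one run of entries and B6-D2 congenic follows B6-albino in another, and no label names a batch. Any batch that followed this order cannot be told apart from the strain here. Of the 252 called probe sets, 15 had the 6 arrays of the first pair of strains apart from the 6 of the second pair. Among all 27022 tested, 339 did. Both counts can come only from the 4659 tested probe sets whose B6-Lyst and B6-D2 congenic arrays did not overlap, and all 252 calls are among these.

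Gpnmb was the one mutated gene whose level differed. Its main probe set read 13.08, 13.18 and 12.65 on the B6-Lyst arrays and 9.40, 9.06 and 9.53 on the B6-D2 congenic arrays. C57BL/6J read 13.19, 12.57 and 11.95, and B6-albino 12.59, 12.71 and 12.13, so the 3 B6-D2 congenic arrays lay below the other 9. The difference between B6-Lyst and B6-D2 congenic was 3.64 (log2, SE 0.28), a 12.4-fold difference with an adjusted p of 1.64e-05. A second, dimmer Gpnmb probe set averaged 7.87 and 6.87 and was not called (difference 1.00, SE 0.24, adjusted p 0.109). Lyst itself read 9.70, 9.69 and 9.26 in B6-Lyst and 9.54, 9.38 and 9.52 in B6-D2 congenic, overlapping ranges with a difference of 0.07 (SE 0.29, adjusted p 0.952). Tyrp1 read 13.16, 13.59 and 13.15 against 13.34, 13.47 and 13.56 and was not called either (difference -0.16, SE 0.16, adjusted p 0.776). The signs of these last differences changed with the scaling, the covariate, the probe set or the array left out. Where the Lyst and Tyrp1 probe sets lie relative to the mutations was not examined, so their levels do not check the strain labels. An mRNA level does not show whether a mutant protein is made.

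Some genes of a list of lipid-handling and foamy macrophage genes were among those that rose most. The list also holds genes that do not themselves take up or store lipid, such as Mmp12, Atp6v0d2 and the integrin gene Itgax. Of 23 tested members of the lipid-handling list, 22 had a higher mean in B6-Lyst and 12 were called, all higher, where 1.24% of all tested genes were called higher. With the spike-in covariate 7 were called, and with a filter at the 60th percentile 6. The list median was 0.97 against -0.08 over all genes. Without the 6 members that passed the filter through B6-Lyst alone, 6 of 17 were called and the median was 0.64. The 12, the 7 with the spike-in covariate and the 6 of 17 each include Gpnmb. That gene is mutated in B6-D2 congenic and read low in that strain alone. Mmp12, the elastase that alveolar and foamy macrophages secrete, read 10.79, 11.30 and 10.37 in B6-Lyst and 5.04, 5.15 and 5.13 in B6-D2 congenic. All 3 low values lay under the filter value, so the difference of 5.71 (SE 0.19, adjusted p 1.16e-08) is given as at least 35.9-fold, against that value. Fabp4, a fatty acid binding protein of macrophages and fat cells, read 9.77, 9.55 and 8.84 against 4.92, 4.71 and 4.31, at least 13.3-fold higher (adjusted p 5.19e-07). Cd36, a scavenger receptor for oxidised lipoproteins, read 9.52, 9.39 and 9.07 against 5.36, 5.68 and 5.09, at least 12.8-fold higher (adjusted p 8.71e-08). Atp6v0d2 read 10.13, 10.35 and 9.995 against 5.56, 5.49 and 5.58, at least 22.7-fold higher (adjusted p 1.05e-09). For these 4 genes the C57BL/6J and B6-albino means lay between 4.29 and 5.48, so only the B6-Lyst mean stood above the filter value.

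Members of the same list with smaller differences fell into a called and an uncalled set. Trem2, a receptor for lipids and lipoproteins on macrophages, rose by 1.60 (SE 0.19, adjusted p 0.000596). Pla2g7, the lipoprotein-associated phospholipase, rose by 1.73, Cd5l, a secreted macrophage protein, by 1.37, and Cd300lf, a lipid-binding receptor, by 2.38. Lgals3, or galectin-3, was 12.74, 13.08 and 12.65 against 10.71, 12.07 and 11.06, a rise of 1.54 (adjusted p 0.0177). Its call was lost without B6-Lyst replicate 1 or 2 or B6-D2 congenic replicate 1 or 3, with adjusted p between 0.0551 and 0.0999. Apoe and Apoc1, apolipoproteins of lipid export, differed by -0.01 and 0.00, and the cholesterol exporters Abca1 and Abcg1 by 0.09 and 0.24, none of them called. The remaining uncalled members were Plin2, Npc1, Cd9, Lpl, Fabp5, Npc2 and Lpcat2. Cd36, Fabp4 and Mmp12 were called where Apoe, Abca1 and Abcg1 were not, and the difference between these sets was not tested.

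**Figure D2:**
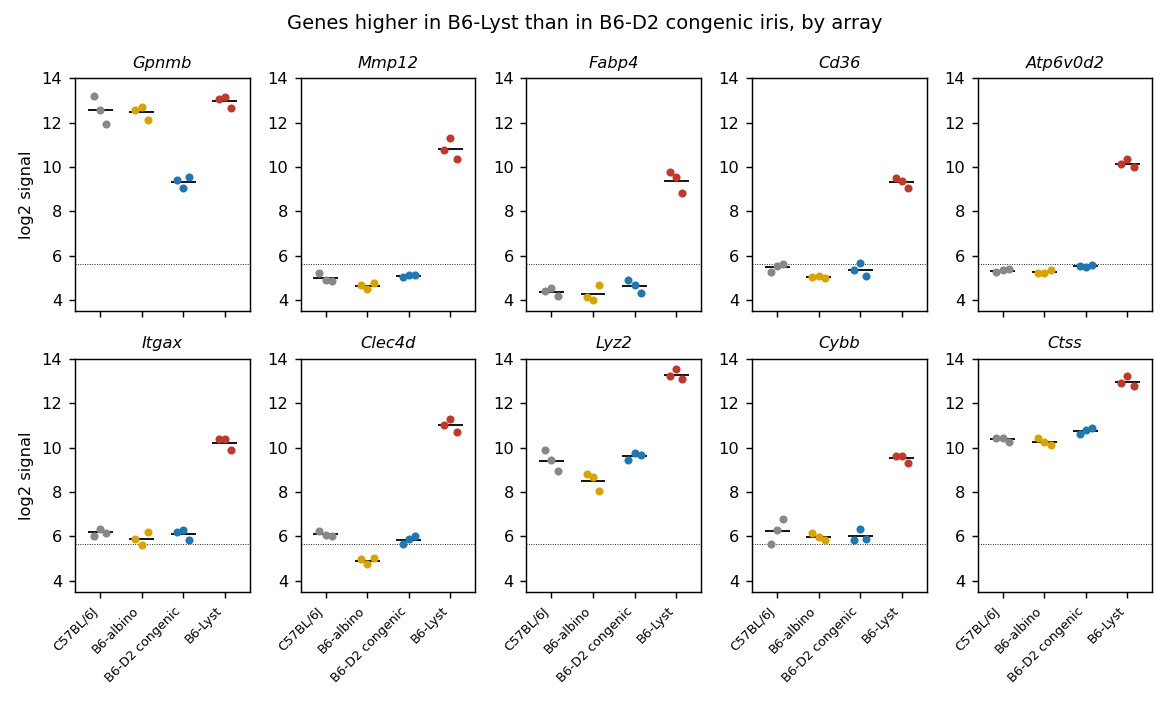
Log2 signal on each of the 12 arrays (points, 3 per strain) with the strain mean (bar) for Gpnmb and 9 other genes called higher in B6-Lyst than in B6-D2 congenic iris, with the filter value dotted. In Gpnmb the B6-D2 congenic arrays stand below all others, whereas in the remaining genes the 3 B6-Lyst arrays stand above the 9 arrays of the other strains.

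Promoter sequence was read for genes that rose together, to show the letters that macrophage transcription factors are known to bind. Letters of an ETS-type site (GAGGAAG, the kind PU.1 binds) were found on either strand within 250 bases upstream of the start in 32 of the 126 risen genes with a RefSeq promoter (25.4%). Among all tested genes with a promoter the share was 12.8%, and 3244 of all 27025 genes with a RefSeq promoter held the motif. A gene was counted if any of its promoters matched. The AP-1 letters TGAGTCA, which Fos and Jun family factors bind, were found in 9.52% of risen genes, 4.13% of tested genes and 5.16% of all genes with a RefSeq promoter. The E-box CACGTG, which the MITF family of pigment and lysosome regulators binds, was found in 3.17%, 9.62% and 6.86%. These shares are descriptions, and a match is not a shown binding site. The stretches below are from RefSeq, build GRCm38.p6, written 5′ to 3′ on the gene's strand, with the motif in capitals, as the letters searched or their reverse complement. They are from 5 of the risen genes with a match. The first Mmp12 stretch is chr9:7344263-7344362, plus strand, with the match 87 bases before one annotated start, and the second is chr9:7347274-7347373, plus strand, 44 bases before another. For Itgax it is chr7:128129447-128129546, plus strand, for Clec4d chr6:123261857-123261956, plus strand, for Laptm5 chr4:130913216-130913315, plus strand, and for C3ar1 chr6:122856158-122856257, minus strand.
Mmp12, ETS letters: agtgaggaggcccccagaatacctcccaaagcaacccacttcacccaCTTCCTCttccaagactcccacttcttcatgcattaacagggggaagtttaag
Mmp12, AP-1 letters: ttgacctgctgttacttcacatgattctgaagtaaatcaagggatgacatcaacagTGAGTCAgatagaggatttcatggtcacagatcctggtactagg
Itgax, AP-1 letters: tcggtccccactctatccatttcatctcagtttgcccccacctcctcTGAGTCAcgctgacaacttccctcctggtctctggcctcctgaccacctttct
Clec4d, ETS letters: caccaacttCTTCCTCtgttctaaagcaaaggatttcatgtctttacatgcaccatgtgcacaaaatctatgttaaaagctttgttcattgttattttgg
Laptm5, ETS letters: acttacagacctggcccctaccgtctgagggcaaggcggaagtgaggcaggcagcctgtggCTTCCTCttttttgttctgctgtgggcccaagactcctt
C3ar1, AP-1 letters: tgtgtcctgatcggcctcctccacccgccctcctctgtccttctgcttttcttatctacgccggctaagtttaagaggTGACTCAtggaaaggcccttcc

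Markers of macrophages and other myeloid cells rose as a group, with exceptions. Of 34 tested members of that list, 29 had a higher mean in B6-Lyst and 21 were called, all higher, with a median difference of 1.04. With the spike-in covariate 12 were called, without Ptprc, Lcp1 and Adgre1 among others. Of 31 members that passed the filter without the B6-Lyst arrays, 18 were called, with a median of 0.84. The mean of the 34 was 8.74 to 8.90 on the B6-Lyst arrays and 7.35 to 7.41 on the B6-D2 congenic arrays, while C57BL/6J lay at 7.19 to 7.25 and B6-albino at 6.98 to 7.34. Lyz2, the macrophage lysozyme, read 13.23, 13.53 and 13.08 against 9.45, 9.74 and 9.69, a difference of 3.65 (SE 0.25, 12.6-fold, adjusted p 5.16e-06). Mpeg1, perforin-2 of phagocytes, rose by 3.13, Adgre1, a receptor gene used as a macrophage marker, by 1.55, and the common leukocyte antigen gene Ptprc by 2.66. Cd53 and Cd84, surface proteins of leukocytes, rose by 3.12 and 3.10, and Lcp1, the leukocyte actin bundler plastin, by 2.40. The closely related Lyz1 rose by 1.80 (adjusted p 5.24e-05). Lyz1 and Lyz2 are near-identical copies whose probes may share signal, so their separate sizes are uncertain.

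Several defining markers of macrophages were not called. Csf1r, the receptor for the macrophage growth factor CSF1, read 11.68, 11.62 and 11.62 against 11.42, 11.32 and 11.29, a difference of 0.30 (adjusted p 0.515). Mrc1, the mannose receptor of tissue-resident macrophages, differed by 0.64 (adjusted p 0.379). Among the complement C1q chains, C1qb was called (1.22, adjusted p 0.0241) and C1qa and C1qc were not (0.48 and 0.86). The C1qb call was lost when any 1 of the 6 arrays of the 2 strains was left out, with adjusted p from 0.0633 to 0.122. Msr1, the class A scavenger receptor, was not called by its brightest probe set (0.47, adjusted p 0.0778), but another was (1.14, adjusted p 0.00486). Cd163, a haemoglobin scavenger receptor of resident macrophages, read 5.59, 3.83 and 5.63 against 6.29, 6.34 and 6.08 (difference -1.22, adjusted p 0.349). F13a1 read 6.99, 5.22 and 7.20 against 7.27, 7.23 and 6.87, and Pf4 8.31, 6.84 and 8.03 against 8.70, 9.02 and 9.04, neither called. B6-Lyst replicate 2 was the lowest of the 6 arrays for Cd163, F13a1 and Pf4, although it was the highest for Mmp12, Itgb2, Clec7a and Lyz2. The genes that rose most were therefore not matched by Csf1r or by these resident-cell markers on the same arrays.

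**Figure D3:**
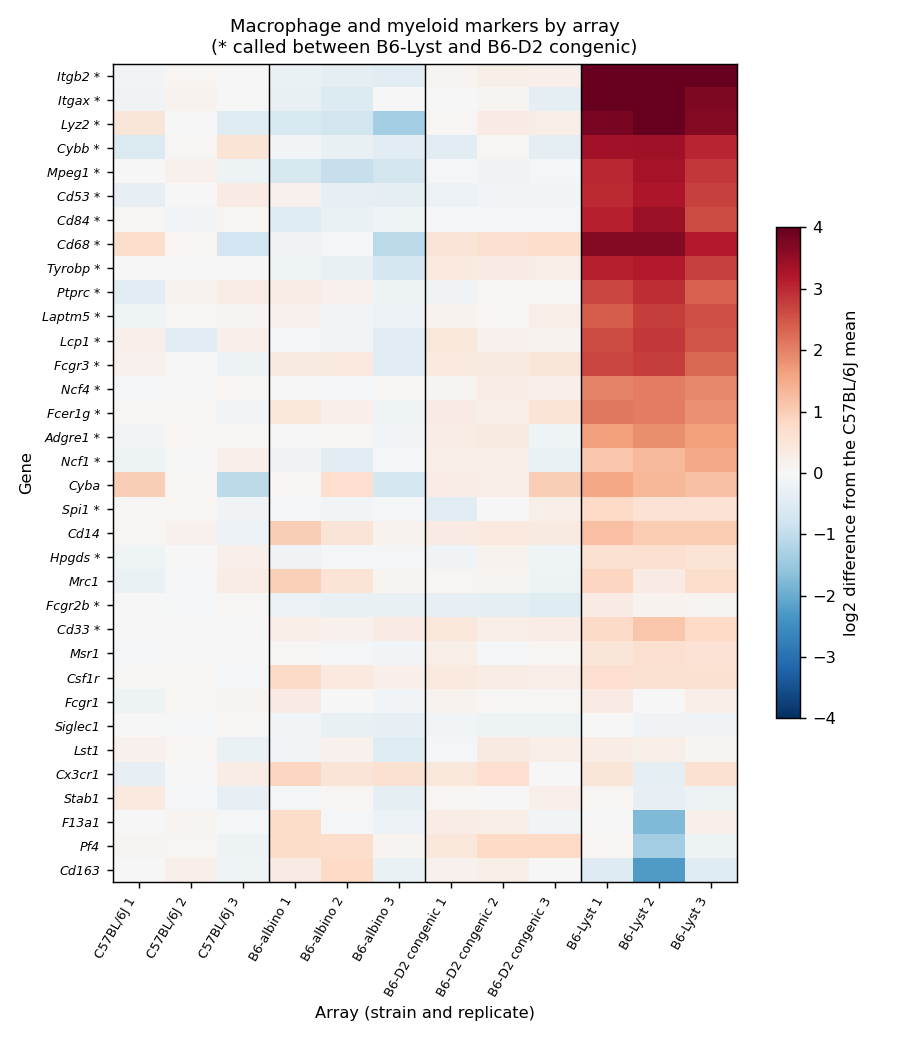
Log2 difference of each array (columns) from the C57BL/6J mean for the 34 tested macrophage and myeloid markers (lines, sorted by the difference between B6-Lyst and B6-D2 congenic; stars mark called genes; the colour scale ends at 4 in both directions). The 3 B6-Lyst columns are red for most genes from Itgb2 to Ncf1, the B6-D2 congenic columns stay near white, and F13a1, Pf4 and Cd163 are blue on B6-Lyst replicate 2.

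Some adhesion receptors of myeloid cells rose too. Among 7 tested leukocyte integrin genes of 10 on the array, 3 were called, all higher, and the other 4 were not, 2 of them with lower means in B6-Lyst. Of the 6 that passed the filter without the B6-Lyst arrays, 2 were called. Itgb2, the common beta chain of the leukocyte integrins, read 10.98, 11.23 and 10.70 against 6.76, 6.88 and 6.85, a 17.6-fold difference (4.14, SE 0.14, adjusted p 1.16e-08). Itgax, the CD11c chain that pairs with it, read 10.38, 10.40 and 9.90 against 6.19, 6.29 and 5.83, a 17.4-fold difference (adjusted p 1.6e-07). Itgb3, the beta chain of the vitronectin receptor, rose by 2.39, at least 3.39-fold. Both CD11c integrin chains were thus raised by a similar factor.

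Of 13 myeloid lectin receptors on the array, 6 were tested, and 3 of these, Clec4d among them, passed the filter through B6-Lyst alone. All 6 had higher means and 4 were called, 2 of them among the 3 that passed without B6-Lyst. Clec4d read 11.02, 11.31 and 10.72 against 5.66, 5.88 and 6.04, a 35.7-fold difference (5.16, SE 0.16, adjusted p 8.17e-09). Clec7a, or dectin-1, a receptor for fungal glucans, read 11.52, 11.92 and 11.35 against 7.81, 7.97 and 7.81, a 13.3-fold difference (adjusted p 1.47e-06). Clec4n, or dectin-2, rose by 2.11 and Clec4a2, an inhibitory lectin receptor, by 1.12. The activating receptors therefore differed most in this group, in values that did not overlap between the strains.

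Signalling through some of these receptors runs over adaptors that carry an ITAM, a tyrosine motif that the kinase Syk reads. All 19 tested members of the Fc receptor and ITAM list had higher means in B6-Lyst, 9 were called, and the median difference was 0.70. With the spike-in covariate 2 were called, Tyrobp and Fcgr3. Of 15 members that passed the filter without the B6-Lyst arrays, 7 were called, with a median of 0.58. Tyrobp, the adaptor DAP12, read 10.92, 10.97 and 10.55 against 8.21, 8.15 and 8.09, a rise of 2.67 (SE 0.15, adjusted p 1.01e-06). Fcer1g, the Fc receptor gamma chain, rose by 1.64 and Fcgr3, an antibody receptor that needs it, by 2.17. Syk read 8.61, 8.62 and 8.54 against 6.54, 7.25 and 6.45, a rise of 1.84, and the kinase Btk rose by 1.11. By brightest probe sets, the inhibitory receptor Fcgr2b rose least of the called members, by 0.58 (adjusted p 0.0159). That call was lost without B6-Lyst replicate 1 or 2 or B6-D2 congenic replicate 2 or 3, with adjusted p up to 0.119. Other Fcgr2b probe sets were called higher by 1.07 (adjusted p 0.0215) and 1.10 (adjusted p 0.0399), near the size of Btk. Receptor, adaptor and kinase of this route were thus each called, and the kinase Fgr (0.02) and Trem1 (0.14) were not.

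Genes of the phagocyte oxidase and of several surface receptor families were grouped after their values had been seen, so their counts are a description. Of 5 tested NADPH oxidase genes, 4 were called: Cybb, its catalytic chain, rose by 3.52 (9.63, 9.64 and 9.31 against 5.83, 6.32 and 5.89), Ncf4 by 1.79, Ncf1 by 1.23 and Rac2 by 1.09. Cyba, the partner of Cybb, differed by 0.84 (adjusted p 0.583), with C57BL/6J arrays spread from 8.14 to 10.18. All 4 tested Cd300 genes were called, with a median rise of 2.22, and so were 3 of 6 Ms4a genes, of which Ms4a6d rose by 3.48. Without members that passed the filter through B6-Lyst alone, 3 of 4 oxidase genes and 3 of 3 Cd300 genes were called. Tlr13, a sensor of bacterial ribosomal RNA, rose by 2.66 and Tlr7 by 0.72, while Tlr2 (0.43) and Tlr4 (0.41), which sense bacterial lipids, were not called. Csf2rb and Csf2rb2, beta chains for GM-CSF and interleukin-3, rose by 2.56 and 2.87, and are near-identical copies whose sizes may share signal. The receptor alpha chain Csf2ra differed by 0.78 and was not called.

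The lysosome was raised in part. Its genes were listed in 4 classes, and with the spike-in covariate 3 membrane proteins, 0 acid hydrolases, 1 cathepsin and 1 proton pump gene were called by limma. Of 19 tested lysosome membrane proteins, 5 were called: Slc15a3, a histidine and peptide transporter, at least 10.05-fold, Cd68 by 2.89, Laptm5 by 2.44, Slc11a1, the metal transporter NRAMP1, by 1.60, and Slc37a2 by 1.35. Lamp1 and Lamp2, the general membrane proteins of lysosomes, differed by 0.04 and -0.06 and were not called. Of 29 acid hydrolases, 3 were called: Acp5, the tartrate-resistant phosphatase of osteoclasts and macrophages, rose by 2.01, Gla, the galactosidase, by 1.66, and Lipa, which splits cholesteryl esters, by 0.97. The Lipa call was lost without B6-Lyst replicate 1 or 2, B6-D2 congenic replicate 1 or 2, C57BL/6J replicate 2 or 3 or B6-albino replicate 1, with adjusted p from 0.0506 to 0.182. Another Lipa probe set was called higher by 1.24 (adjusted p 0.00151), also without any 1 of the 6 arrays of both strains. It was not called with the spike-in covariate (adjusted p 0.674). Of 17 cathepsins and inhibitors, Ctss was called, at 12.93, 13.25 and 12.77 against 10.64, 10.82 and 10.87, a rise of 2.21 (adjusted p 4.14e-06). Ctsb, or cathepsin B, was not called by its brightest probe set (0.43, adjusted p 0.591), but 2 others were called higher, by 1.43 (adjusted p 0.0041) and 1.14 (adjusted p 0.00415), each also without any 1 of the 6 arrays of both strains. Neither was called with the spike-in covariate. Of 19 proton pump genes, Atp6v0d2 was called, and the list median was 0.02. Without members that passed the filter through B6-Lyst alone, 0 of 18 proton pump genes and 4 of 18 membrane proteins were called. The medians of the acid hydrolases, 0.06, and the membrane proteins, 0.12, lay near that of all genes, -0.08, and that of the cathepsins was 0.28. Of all tested genes 1.24% were called higher, against 5 of 19 membrane proteins and 3 of 29 acid hydrolases. The cathepsin and proton pump lists held 1 call each, of 17 and 19. Arrays did not overlap, in the higher direction, for 7 membrane proteins and 6 cathepsins, against 6.96% of all probe sets.

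Secreted mediators held single calls, where 1.24% of all tested genes were called higher. Of 16 matrix metalloproteinases, related proteases and inhibitors, Mmp12 and Adam8 (2.56, at least 5.11-fold) were called, and both passed the filter through B6-Lyst alone. Among 20 chemokines and receptors, Ccl6 rose by 2.13, Ccl9 by 1.33 and the decoy receptor Ccrl2 by 0.81, while Ccl2, which recruits monocytes, and its receptor gene Ccr2 differed by 0.11 and 0.12. The chemokine gene Cxcl16 was called by a second probe set (1.01, adjusted p 0.0337) and not by its brightest (0.72, adjusted p 0.054), and the call held in 1 of the 6 fits without an array of the 2 strains. C3ar1, the receptor for complement C3a, rose by 1.62 (adjusted p 0.00073). Il1b and Tnf, cytokines of acute inflammation, differed by -0.07 and 0.02 and were not called. None of 30 interferon-stimulated genes was called with limma, 0 had an unadjusted p under 0.05, and their median was 0.00. Among MHC class II genes, H2-Aa, H2-Ab1 and Cd74 lay between -0.05 and 0.09, and the 1 call of 10 was Cd83, a maturation marker of dendritic cells, which rose by 1.72. Of the 8 class II list members that passed the filter without the B6-Lyst arrays, 0 were called.

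Among the transcription factors of myeloid cells, grouped after their values had been seen, 5 of 12 were called. With the spike-in covariate limma called 0, and without it 5 had an unadjusted p under 0.05. Irf8 rose by 1.42 (8.30, 8.23 and 8.002 against 6.69, 6.79 and 6.80, adjusted p 0.000929). Spi1, which encodes PU.1, rose by 0.73 (adjusted p 0.0487), and its call was lost when any of the 12 arrays except B6-D2 congenic replicate 3 was left out, with adjusted p up to 0.258. Cebpa rose by 0.67, and its call was lost without any of the 12 except C57BL/6J replicates 1 and 3, with adjusted p up to 0.212. Of 30 immediate early and stress genes, Atf3, a stress-induced repressor, was called at 8.43, 8.68 and 8.25 against 6.07, 5.98 and 6.07, a rise of 2.41 (adjusted p 1.33e-05). Fos and Jun differed by 0.86 and 0.14 and were not called. Cdkn1c, the cell cycle inhibitor p57, rose by 1.497 (adjusted p 0.00285) and was the 1 call among 24 cell cycle genes.

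Il7r was called as a lymphocyte list member, yet Cd3e, Cd8a and Ighm, which define lymphocytes, were not called. It read 9.72, 10.28 and 9.53 against 4.95, 5.05 and 5.17, at least 18.2-fold higher (adjusted p 1.19e-08). Cd3e, of the T cell receptor complex, differed by 0.20, Cd8a by 0.37 and Ighm, the immunoglobulin M heavy chain, by 0.03, none called. Cd4, which macrophages can also carry, rose by 0.88 (adjusted p 0.00388), while its second probe set differed by 0.04. Of the 5 lymphocyte list members that passed the filter without the B6-Lyst arrays, 1 was called. Glipr1, a secreted protein of the CAP family, rose by 3.81 (13.98-fold) and belonged to none of the lists. Of the 163 gene rises, 124 were called in each of the 6 fits that left out 1 array of the 2 strains.

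**Figure D4:**
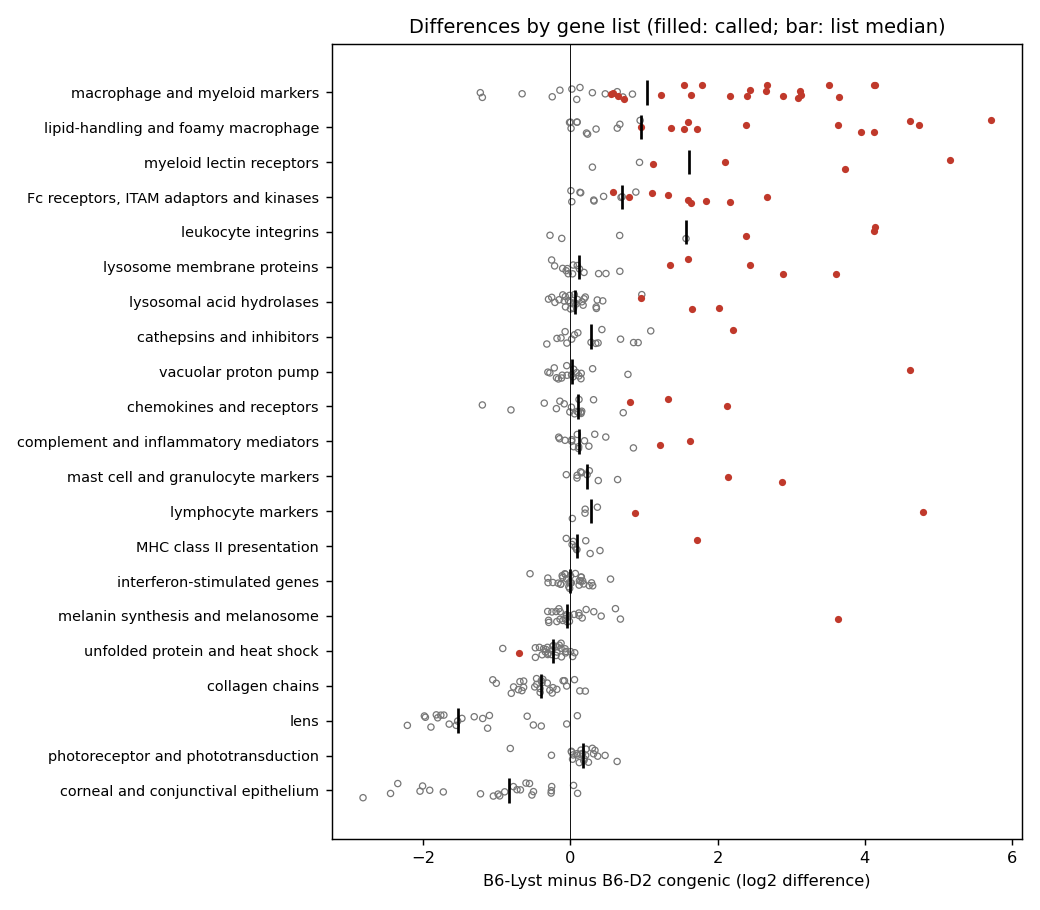
Log2 difference between B6-Lyst and B6-D2 congenic for the tested genes of 21 lists (circles; filled red, called; black bar, list median). The myeloid lists at the top reach to the right, Mmp12 at 5.71 being the farthest. The lysosomal lists hold a few called genes beside medians from 0.02 (proton pump) to 0.28 (cathepsins). Lens, corneal and collagen genes lie mostly to the left with no call.

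Mast cell proteases formed a separate pattern, in which B6-D2 congenic was the lowest strain as well. Cpa3, the mast cell carboxypeptidase, read 8.21, 8.36 and 9.22 in B6-Lyst and 5.48, 5.92 and 5.79 in B6-D2 congenic, with C57BL/6J at 6.14, 6.36 and 6.52 and B6-albino at 7.26, 7.74 and 6.87. The difference was 2.87 (SE 0.27, adjusted p 1e-04). Cma1, the chymase, read 8.35, 8.38 and 8.96 against 6.45, 6.54 and 6.28, a rise of 2.14 (SE 0.23, adjusted p 0.000276). For both genes the B6-D2 congenic arrays lay below the other 9, but neither differed from C57BL/6J by a call (-0.61, adjusted p 0.273, and -0.49, adjusted p 0.288). The tryptase gene Tpsb2 differed by 0.64 (adjusted p 0.0678), and Kit, the receptor that mast cells and melanocytes share, by -0.05. These 2 proteases were the only calls among 11 tested mast cell and granulocyte genes, and with the spike-in covariate neither was called (adjusted p 0.0766 for Cpa3 and 0.158 for Cma1).

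The rises lay mostly on the B6-Lyst side, and the falls were mixed. For 158 of the 163 risen genes, every C57BL/6J and B6-albino array lay below the lowest B6-Lyst array. The 34 risen genes that passed the filter through B6-Lyst alone had low means elsewhere by that filter. The 158 is therefore a description, and it was not counted over the other 129. The mean of B6-D2 congenic lay within 0.5 of that of C57BL/6J for 146 of them, with a median difference of 0.01. The comparison of B6-Lyst with C57BL/6J shares the B6-Lyst arrays and called 353 of 13190 genes (2.68%), and that of B6-D2 congenic with C57BL/6J called 2 (0.0152%). B6-D2 congenic against B6-albino called 12 (0.091%). In 6 of the 163 genes, by brightest probe sets, the B6-D2 congenic arrays lay below all 9 others: Gpnmb, Cpa3, Cma1, Nr4a3, Rps6 and Fcgr2b. For Fcgr2b the gap was 0.02, and its other called probe sets did not show it. On those, B6-albino read down to 6.14 and 7.86, under the lowest B6-D2 congenic values of 6.58 and 8.05. Nr4a3, an orphan nuclear receptor of the immediate early class, read 8.33, 8.43 and 8.02 against 7.25, 6.96 and 7.10, with B6-albino highest at a mean of 9.02. Its rise of 1.15 (adjusted p 0.0322) was lost without B6-Lyst replicate 1 or 2, any 1 B6-D2 congenic array or C57BL/6J replicate 2, with adjusted p up to 0.155.

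In 6 of the 9 falls all other 9 arrays lay below the lowest B6-D2 congenic array, and in 2 all others lay above the highest B6-Lyst array. These genes were chosen by the same arrays, so the counts are a description. Between B6-D2 congenic and C57BL/6J, 0 of the 9 were called with limma, and 4 had means within 0.5. The median of that difference was 0.40, in a range of -1.69 to 1.35. Cck had the largest difference of the 9. It read 6.80, 7.11 and 6.53 in B6-Lyst and 9.38, 9.62 and 10.08 in B6-D2 congenic, a 7.37-fold difference (-2.88, SE 0.33, adjusted p 0.000485). C57BL/6J lay between, at 9.04, 8.41 and 7.597, and B6-albino beside B6-Lyst, at 6.52, 7.10 and 6.44. By brightest probe sets, Cck was the 1 fall called in each of the 6 fits that left out an array of the 2 strains. With the spike-in covariate its difference was -1.52 and was not called (adjusted p 0.943). Its differences from C57BL/6J were -1.54 for B6-Lyst (adjusted p 0.0334) and 1.35 for B6-D2 congenic (adjusted p 0.122). Its promoter is shown because it was 1 of 2 among the 7 fallen genes with a RefSeq promoter that held the E-box CACGTG, in capitals, 66 bases before the start (GRCm38.p6, chr9:121495708-121495807, minus strand).
Cck, E-box letters: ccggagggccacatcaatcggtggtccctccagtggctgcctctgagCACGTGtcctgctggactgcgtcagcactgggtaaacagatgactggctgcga

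The other falls were smaller, and by brightest probe sets each lost its call without 1 or more arrays. A second probe set of Zkscan3, a zinc finger gene, was called lower in each of those 6 fits. It read 7.77, 7.93 and 8.19 in B6-Lyst and 8.84, 8.998 and 9.25 in B6-D2 congenic (-1.06, 2.09-fold, adjusted p 0.00175), with C57BL/6J and B6-albino between, and was called with the tissue covariates (adjusted p 0.0466) and not with the spike-in covariate (adjusted p 0.777). The brightest Zkscan3 probe set differed by -0.73 (adjusted p 0.135). A second probe set of Tfr2, a transferrin receptor gene, was called too (-0.83, adjusted p 0.0256), in none of those fits, while its brightest differed by -0.09. Prpmp5, a proline-rich secretory protein of the salivary type, read 6.78, 7.61 and 6.74 against 8.95, 7.82 and 8.64 (-1.42, adjusted p 0.0487), while C57BL/6J averaged 10.16 and B6-albino 12.46. Its call was lost when any of the 12 arrays except replicate 2 of B6-Lyst or of B6-D2 congenic was left out, with adjusted p up to 0.252. Calr, or calreticulin, a chaperone of the endoplasmic reticulum, read 11.11, 11.35 and 11.13 against 11.79, 11.83 and 12.05, a difference of -0.69 (adjusted p 0.0129) that was lost without B6-Lyst replicate 1 or 3 or B6-D2 congenic replicate 3 (adjusted p up to 0.098). Among 29 chaperone and unfolded protein genes it was the 1 call, and 26 had lower means in B6-Lyst, with a median of -0.24. Pdcd4, a translation inhibitor, differed by -0.83, Chst15, a chondroitin sulfotransferase, by -0.73, Hey1, a Notch target, by -0.61, Ccdc120 by -0.64 and Srrd by -0.60. Each of these 5 calls was lost without B6-Lyst replicate 1 or 3 and without B6-D2 congenic replicate 2, with adjusted p up to 0.192. Other arrays ended some of them: any of the 12 except B6-D2 congenic replicate 1 for Hey1, B6-Lyst replicate 2, B6-D2 congenic replicate 1 or B6-albino replicate 1 for Ccdc120, B6-D2 congenic replicate 1 for Pdcd4, B6-D2 congenic replicate 3 for Chst15, and the remaining arrays of both strains, C57BL/6J replicate 2 and B6-albino replicates 1 and 2 for Srrd. A second Srrd probe set differed by 0.10. For Ccdc120 the B6-Lyst mean, 5.46, lay under the filter value.

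**Figure D5:**
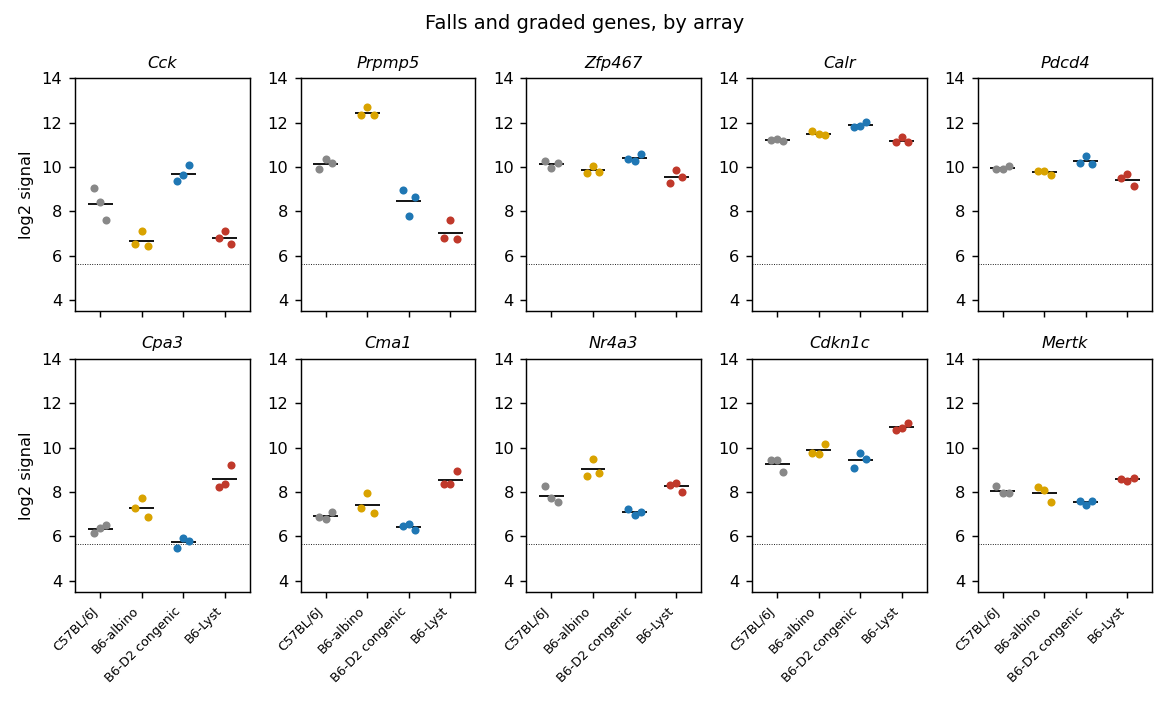
Log2 signal on each of the 12 arrays (points, 3 per strain) with the strain mean (bar) for 5 genes called lower in B6-Lyst (Cck, Prpmp5, Zfp467, Calr, Pdcd4) and 5 called higher whose reference strains are not all alike (Cpa3, Cma1, Nr4a3, Cdkn1c, Mertk). Cck is highest in B6-D2 congenic, lies between in C57BL/6J and is low in B6-albino and B6-Lyst. Prpmp5 falls from 12.46 in B6-albino to 7.05 in B6-Lyst.

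Among pigment genes, Gpnmb was the 1 call by brightest probe sets. The list held 26 tested melanin and melanosome genes, with a median of -0.05. Tyr, the enzyme that starts melanin synthesis, read 12.09, 12.22 and 11.56 against 11.81, 11.88 and 12.21. Pmel, which forms the melanosome's fibrils, differed by -0.05, Dct by -0.10 and Mlana by -0.31, none called. A second probe set of Rab27a, a GTPase of melanosome transport, was called higher in B6-Lyst by 0.78 (adjusted p 0.0418), whereas its main one differed by -0.29. A second probe set of Kitl, the ligand of Kit, was called higher by 1.11 (7.95, 7.86 and 7.97 against 7.08, 6.82 and 6.55, adjusted p 0.024), in 1 of the 6 fits without an array of the 2 strains, and its brightest differed by 0.61 (adjusted p 0.196). None of 11 pigment cell transcription factors, with Mitf at 0.25 (adjusted p 0.631), none of 22 genes for the assembly of lysosome-related organelles and none of 9 BEACH domain genes was called with limma. At an unadjusted p under 0.05 these lists held 2, 1 and 2 genes.

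Genes of neighbouring tissues varied between arrays, and few were called. No lens gene of 21 was called with limma, and 0 had an unadjusted p under 0.05, although 20 had lower means in B6-Lyst and the list median was -1.53. Cryaa, the alpha-A crystallin of the lens, read 13.42, 8.501 and 13.22 in B6-Lyst and 12.95, 13.65 and 13.95 in B6-D2 congenic, so B6-Lyst replicate 2 set that difference. No corneal gene of 24 was called (median -0.83), and 1 had an unadjusted p under 0.05. Of 15 genes of the retinal pigment epithelium, 14 had lower means in B6-Lyst, 8 of them with arrays that did not overlap and 7 with an unadjusted p under 0.05, and none was called lower with limma. The mean of the 15 was 7.99 to 8.54 on the B6-Lyst arrays, 8.63 to 9.14 on the B6-D2 congenic arrays, 7.98 to 8.56 in C57BL/6J and 8.499 to 9.46 in B6-albino. Their part in the other results was not tested. In the same list Mertk, a receptor for the uptake of dying cells that macrophages also use, rose by 1.04 (adjusted p 0.00906). The Mertk call was lost without B6-Lyst replicate 1 or 3 or B6-D2 congenic replicate 2 (adjusted p up to 0.0534). With the lens, photoreceptor and corneal list means as covariates, 112 of the 163 rises and 4 of the 9 falls were called, and the part of these tissues in the other calls was not tested. Collagen chains had lower means in B6-Lyst for 25 of 28 genes and respiratory chain genes for 36 of 37, none called with limma and 3 in each list at an unadjusted p under 0.05, in a background where 59.4% of probe sets were lower.

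Genes beside the mutated loci were examined next. Of the 100 RefSeq genes nearest to Lyst on chromosome 13, 50 on each side, 25 were tested and 2 were called, both higher in B6-Lyst, where 7 of 476 tested genes of chromosome 13 and 1.24% of all genes were, and 4 had an unadjusted p under 0.05. Gpr137b, a lysosomal membrane protein gene 4 genes away, read 10.95, 11.13 and 11.19 against 10.12, 10.46 and 10.41 (0.76, adjusted p 0.0112), and Gpr137b-ps, its pseudogene copy 27 genes away, rose by 0.86 (adjusted p 0.015). They are near-identical, so which one changed is uncertain, and both calls were lost without B6-Lyst replicate 2, with adjusted p of 0.0611 to 0.0677 for Gpr137b (B6-Lyst replicate 2 or 3) and up to 0.0876 for Gpr137b-ps (also without B6-Lyst replicate 1 or B6-D2 congenic replicate 1 or 2). Beside Tyrp1 on chromosome 4, none of 17 tested neighbours was called with limma, and 3 had an unadjusted p under 0.05. Beside Gpnmb on chromosome 6, 1 of 29 was called and 6 had an unadjusted p under 0.05. The call was the zinc finger gene Zfp467, 43 genes away, at -0.85 (adjusted p 0.0238). Its other probe sets differed by -0.81 and 0.29, and its call was lost without B6-Lyst replicate 1 or 3 or any 1 B6-D2 congenic array (adjusted p up to 0.133). Rps6, a ribosomal protein gene 71 genes from Tyrp1, read 9.17, 9.06 and 9.21 against 7.92, 8.24 and 8.43 (0.95, SE 0.15, adjusted p 0.00571), with C57BL/6J at 8.80 and B6-albino at 9.27 on average. It was named after its values had been seen, because B6-D2 congenic lay below all 9 other arrays.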

How the data were processed

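RNA of iris pools was hybridised to Affymetrix arrays, and the authors deposited 1 log2 signal per probe set and array. The scale was read from the values. How they were background-corrected, normalized and summarised is not given in the sources used here. The deposited log2 values were used unchanged, and precision is limited by the number of arrays. Of 45037 probe sets, 34945 had 1 gene symbol, 932 several and 9160 none, and 34741 matched RefSeq (GRCm38.p6).

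limma 3.58.1 in R 4.3.3 fitted 1 mean per strain to all 12 arrays, with an intensity trend in the prior and two-sided tests. Probe sets with a mean at or above the 40th percentile (5.653) were tested. Benjamini-Hochberg adjustment ran over all 27022. A fold against a mean under 5.653, which is not a measured background, is given against that value. Lists came from textbook knowledge and overlap. The comparison, the lists and the alternatives were chosen with earlier results of these data known. Genes named were the mutated genes, the 12 largest rises and the falls whose arrays did not overlap, up to 4 called members of each list by p, and called neighbours of mutated genes, with uncalled members as values. The other called genes were named after their values were seen. Differences are B6-Lyst minus B6-D2 congenic.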

Additional observations from a re-analysis of the deposited data

How the results depend on the processing

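Replicate numbers did not pair the arrays: deviations of same-numbered arrays correlated at -0.43, -0.27 and -0.40. With the replicate number as a block, 218 probe sets were called higher and 6 lower in B6-Lyst, against 241 and 11. The 60th percentile filter, which tests fewer probe sets, gave 137 calls, 130 higher and 7 lower, 102 of at least 2-fold, and 6 of 12 lipid-handling genes. The spike-in covariate, which moves with the strains, gave 60 calls, 60 higher and 0 lower, 60 of at least 2-fold, 12 of 21 macrophage genes and 7 of 12 lipid-handling genes. Tissue marker covariates gave 160 higher. Calls in the lower direction numbered 45 with the actin 3' minus 5' covariate and 4 without the 3 arrays of high Krt12. Leaving out 1 of the 12 arrays in turn gave 175 to 245 higher and 4 to 21 lower, the latter 4 without B6-Lyst replicate 3, 6 without B6-Lyst replicate 1, 5 without B6-D2 congenic replicate 2 or 3, 17 without C57BL/6J replicate 1, 7 without B6-albino replicate 1 and 21 without B6-D2 congenic replicate 1. Quantile normalization, 75th percentile scaling, no filter, no trend, a robust prior and the 6 arrays alone kept all these counts within 1.5 times. Signs turned for Lyst (-0.00657 without B6-Lyst replicate 1 and -0.00223 without replicate 2, in a range of -0.00657 to 0.21 when 1 array was left out), for Tyrp1 (0.0053 with quantile normalization, 0.30 with the spike-in covariate and 0.0535 with another probe set), and for other probe sets of Srrd (0.10) and Zfp467 (0.29). The causes were not tested. The main limits are 3 arrays per strain, the unknown normalization and the record order of the strains.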

Other observations

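Among the 241 called probe sets higher in B6-Lyst, 16 had all 9 other arrays above the highest B6-D2 congenic array, and 7 of the 16 carry no single gene symbol. The probe set 1436240_at read 8.31, 8.30 and 8.90 in B6-Lyst and 3.20, 3.55 and 3.35 in B6-D2 congenic, with C57BL/6J and B6-albino between 8.83 and 9.55. The probe set 1440624_at read 6.06, 6.14 and 6.39 against 3.70, 3.63 and 3.56, with the other strains between 6.32 and 6.997. Both were thus low in B6-D2 congenic alone. The B6-D2 congenic values of both lie under the filter value, so their differences are bounds (at least 7.21-fold for the first), and the files used here name no gene for them. All 25 called probe sets without a single symbol were higher in B6-Lyst. The one with the smallest p, 1420394_s_at, read 11.00, 11.16 and 10.88 against 7.43, 7.23 and 7.196.

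Some called genes of secreted proteins fall outside the lists. Sfrp5, a secreted inhibitor of Wnt signals, read 8.42, 8.16 and 8.21 in B6-Lyst and 6.87, 6.53 and 6.41 in B6-D2 congenic (1.66, limma adjusted p 2.08e-05). Mamdc2, a secreted matrix protein, read 10.62, 10.76 and 10.21 against 8.73, 9.04 and 8.65 (1.73, limma adjusted p 0.0066). Both were named after their values had been seen.

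Cyp1b1, a cytochrome of the anterior segment, read 7.71, 9.02 and 7.88 in B6-Lyst and 9.54, 9.22 and 10.22 in B6-D2 congenic. The arrays did not overlap, but the difference of -1.45 was not called (limma adjusted p 0.113). Xist averaged 12.13 in B6-Lyst and 12.16 in B6-D2 congenic.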
